A study of Danio rerio with 9 samples.

Results

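The first 25 Mb of chromosome 4, the short-arm side of the chromosome, were described in an ATAC-seq series of zebrafish (Danio rerio) spermatozoa. All peaks on chromosome 4 that started below position 25000000 in the build GRCz11 were taken, and peaks of different libraries were merged into regions wherever they shared 1 bp or more. This gave 5777 of the 253847 peaks in the series and 3516 of its 126838 regions. The boundary is a position and no source used here places the centromere. Sperm of 5 libraries came from adult males whose hearts had been frozen locally (cryoinjury) 7 days before, and sperm of 4 libraries from uninjured control males. Strain, exact age and batch are not stated in the labels, and nothing in them ties a library to 1 male or to a pool; the spread that p-values are read against is that of these libraries and may be technical. Values after ± are SDs over libraries. Each library was made from 100000 spermatozoa. Depth per library is unknown, and a stretch without a peak may be closed or too shallowly sequenced, which cannot be told apart. No marker check of the sperm label was made, because peak positions were not tied to genes.

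In ATAC-seq the Tn5 transposase inserts adapters into accessible DNA, so that reads pile up where chromatin is open. Zebrafish sperm package their DNA with histones and not with protamines, so open sites lie among nucleosomes. The long arm of zebrafish chromosome 4 is known as late-replicating, heterochromatic and rich in repeats, whereas the short-arm side is not counted as part of that domain. The other chromosomes, 1 to 25 without 4, served as the comparison, together with the rest of chromosome 4 where the 2 sides differ.

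The short-arm side carried more peaks per Mb than the other chromosomes in 9 of 9 libraries. In injured libraries 1 to 5 it held 652, 694, 335, 562 and 356 peaks, and in control libraries 1 to 4 it held 695, 829, 621 and 1033. The density was 25.7 ± 8.68 peaks per Mb there and 17.4 ± 5.57 on the other chromosomes (SD, n = 9), and the ratio within a library ranged from 1.32 in injured library 5 to 1.74 in injured library 2. The mean log2 ratio was 0.55 ± 0.13 (SD, n = 9; exact sign-flip permutation p = 0.00391, adjusted p = 0.00521 over 4 values compared). That p is the smallest that 9 libraries allow. Measured as covered length per Mb, the ratio was 1.34 ± 0.138 (SD, n = 9), from 1.18 to 1.61. When every library was cut to its 13437 best-scored peaks on chromosomes 1 to 25, called equal-length lists here, the excess was smaller, with a mean log2 ratio of 0.22 ± 0.20 (SD, n = 9; exact permutation p = 0.0156, adjusted p = 0.0208), and control libraries 3 and 4 had ratios below 1, at 0.995 and 0.958. By covered length the ratio in these lists ranged from 0.890 in control library 3 to 1.31 in injured library 3. It was below 1 in injured library 1 and control libraries 1, 3 and 4.

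**Figure D1:**
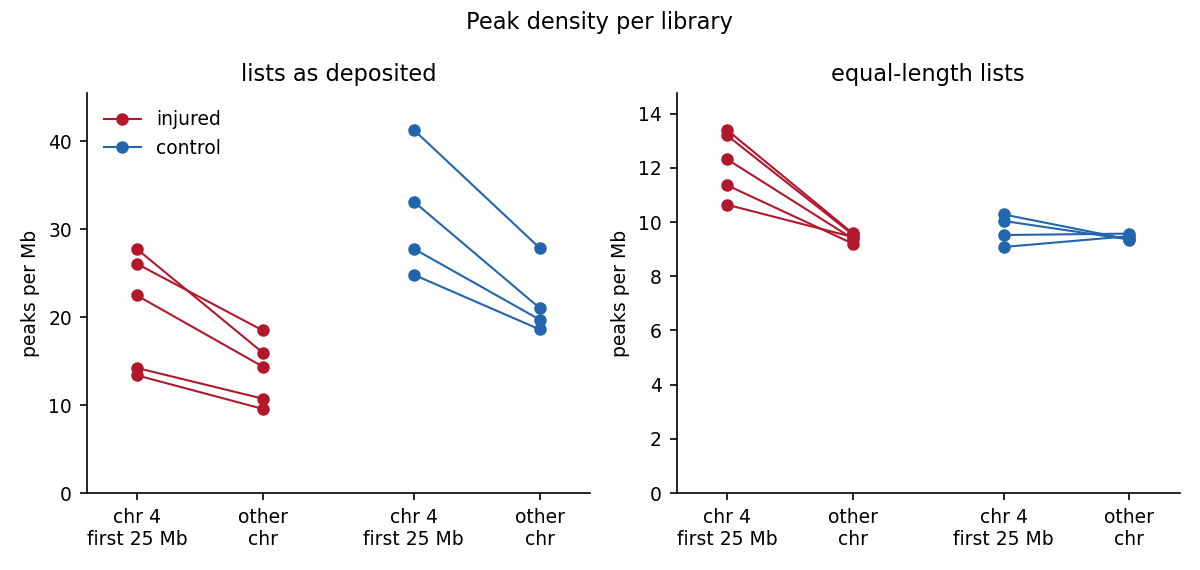
Peaks per Mb in each library (points; lines join values of the same library) in the first 25 Mb of chromosome 4 and on the other chromosomes, for injured and control libraries, in the lists as deposited (left) and the equal-length lists (right). As deposited, every line falls from chromosome 4 to the other chromosomes; at equal length the 4 control libraries lie between 9.08 and 10.3 peaks per Mb on chromosome 4, below all 5 injured libraries.

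The ratio to the other chromosomes grew towards the weaker scores. Scores are the authors' and were used only to rank peaks within a list, the rank percentile of a peak being the percentage of the library's peaks on chromosomes 1 to 25 that rank below it. The median rank percentile on the short-arm side was 38.6 ± 1.91, against 48.8 ± 0.387 on the other chromosomes (SD, n = 9), lower in 9 of 9 libraries (mean difference -10.2 ± 2.06; exact permutation p = 0.00391, adjusted p = 0.00521). Past 25 Mb on chromosome 4 it was 72.8 ± 3.13 (SD, n = 9). Among the best-scored 10% of a library's peaks the short-arm side was depleted, with a density ratio to the other chromosomes of 0.458 ± 0.0977 (SD, n = 9; 0.257 to 0.573). Among the last 10% the ratio was 1.99 ± 0.354 (SD, n = 9; 1.38 to 2.61). In slices of 10%, the mean ratio passed 1 at the third slice, with 1.16 ± 0.140 (SD, n = 9), and was already 1.54 ± 0.269 (SD, n = 9) in the slice that ends the better-scored 50%. Over that better-scored 50% of each list the excess was small, with a mean log2 ratio of 0.15 ± 0.13 (SD, n = 9; exact permutation p = 0.0156, adjusted p = 0.0208), and injured library 3 and control library 3 had ratios below 1, at 0.994 and 0.982. In the best-scored slice the ratio was 0.410 ± 0.106 for the 5 injured and 0.518 ± 0.0424 for the 4 control libraries. In the last slice it was 1.96 ± 0.488 for injured and 2.02 ± 0.118 for control libraries. Slices were not compared by a test.

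**Figure D2:**
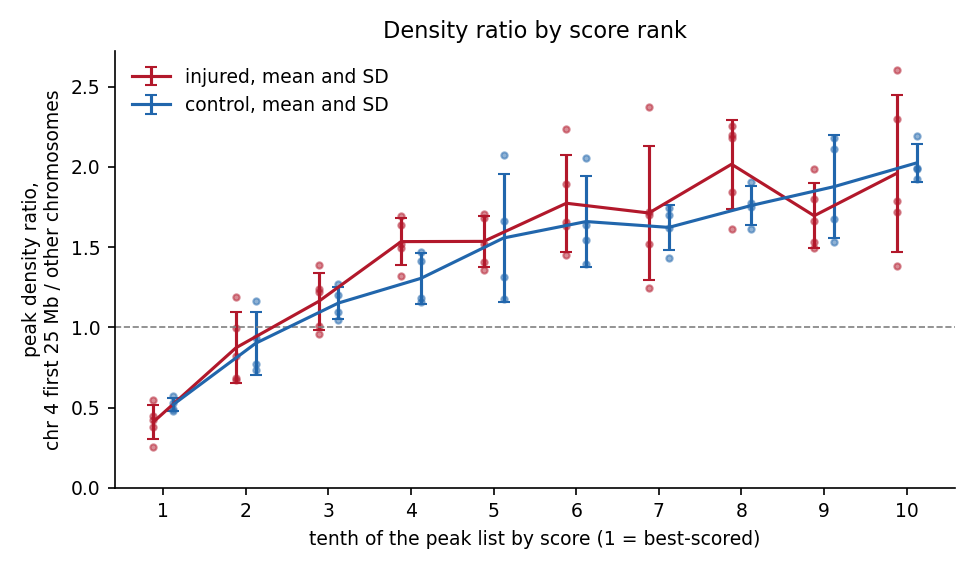
Ratio of peak density in the first 25 Mb of chromosome 4 to that on the other chromosomes (vertical axis) for each slice of 10% of a library's peak list ordered by score (horizontal axis, 1 is the best-scored). Points are libraries, lines and bars are means and SD of 5 injured and 4 control libraries; the ratio climbs from 0.458 in the first slice to 1.99 in the last, as a mean over 9 libraries.

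Peaks on the short-arm side recurred less often between libraries. The share of peaks lying in a region detected in at least 1 other library was 59.1% ± 5.77 there, against 69.0% ± 4.38 on the other chromosomes (SD, n = 9), lower in 9 of 9 libraries (mean difference -9.90 ± 3.97 percentage points; exact permutation p = 0.00391, adjusted p = 0.00521). A library's recurrence depends on the other lists, so the 9 differences are not independent, as the sign flips assume. This limit holds for each sign-flip test of recurrence below. By library the recurrence was 51.5%, 58.2%, 71.0%, 56.9% and 64.0% in injured libraries 1 to 5 and 59.4%, 53.6%, 60.2% and 56.9% in control libraries 1 to 4. Injured library 3, with the shortest list, had the highest value, and the groups overlapped. With the other chromosomes weighted to the same 10% slices of score rank, a setting chosen after the data had been seen, their recurrence was 64.3% ± 4.87 (SD, n = 9) and the difference was -5.22 ± 3.91 percentage points (SD, n = 9; exact permutation p = 0.00391, adjusted p = 0.00521), from -0.944 in control library 3 to -10.8 in injured library 4.

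Regions common to many libraries were few. Of the 3516 regions 2432 (69.2%) were detected in 1 library, against 63.1% of regions on the other chromosomes, and 8 (0.228%) were detected in all 9, against 1.32%. Counting those in 8 or 9 libraries gave 27 regions, or 1.08 per Mb, against 1.93 per Mb on the other chromosomes and 7.78 per Mb past 25 Mb on chromosome 4. In an average library 1.40% ± 0.552 of short-arm peaks lay in a region detected in all 9, and 7.38% ± 2.46 of peaks elsewhere (SD, n = 9). For a pair of libraries, the regions detected in both made up 10.9% of those detected in either (SD 1.75, 36 pairs), against 17.6% on the other chromosomes (SD 1.86, 36 pairs), and the share was lower on the short-arm side in 36 of 36 pairs. Pairs share libraries and were not tested.

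**Figure D3:**
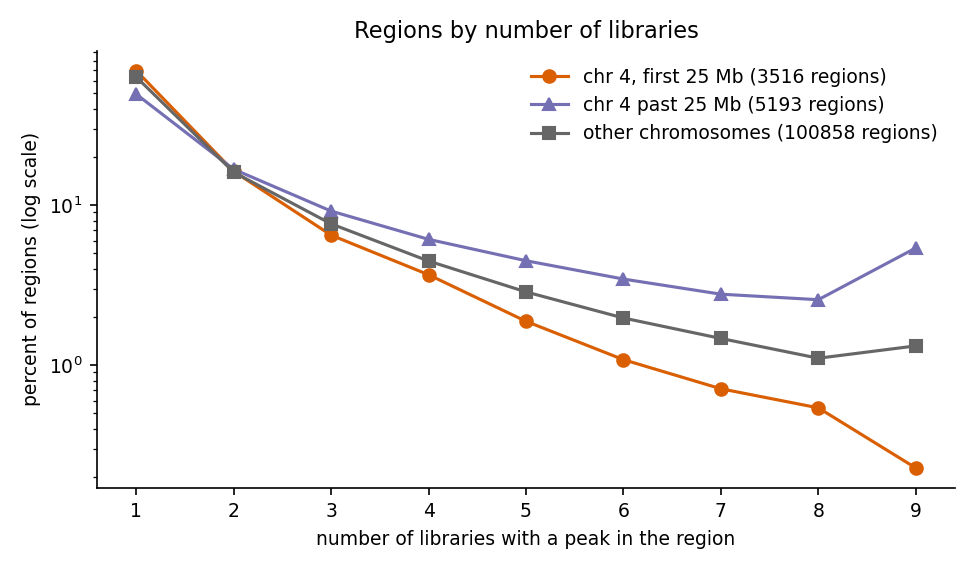
Percent of merged regions (vertical axis, log scale) by the number of libraries with a peak in them (horizontal axis), for the first 25 Mb of chromosome 4, the rest of chromosome 4 and the other chromosomes. The first 25 Mb have the largest share at 1 library, 69.2%, and the smallest at 9 libraries, 0.228%; past 25 Mb 5.39% of regions were detected in all 9.

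Against the same stretch of every other chromosome, chromosome 4 was lowest in recurrence and rank percentile but not highest in density. Over the first 25 Mb of each of the 25 chromosomes, chromosome 4 had the 5th highest peak density, behind chromosome 17 with 29.1 peaks per Mb and 3 more. By library chromosome 4 came between 3rd (injured library 2) and 8th (control library 1) in number of peaks. It ranked last for recurrence (the other chromosomes ranged from 64.7% on chromosome 8 to 75.4% on chromosome 9), last for the median rank percentile (41.4 on chromosome 17 to 58.5 on chromosome 23) and last for regions detected in all 9 libraries (11 on chromosome 18 to 55 on chromosome 24). Its recurrence was the lowest of the 25 in 6 of 9 libraries and the second lowest in injured libraries 3 and 5 and control library 3. Against the first 25 Mb of the other chromosomes as background the log2 density ratio was 0.54 and the recurrence difference -10.5 percentage points (exact permutation p = 0.00391 for each).

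**Figure D4:**
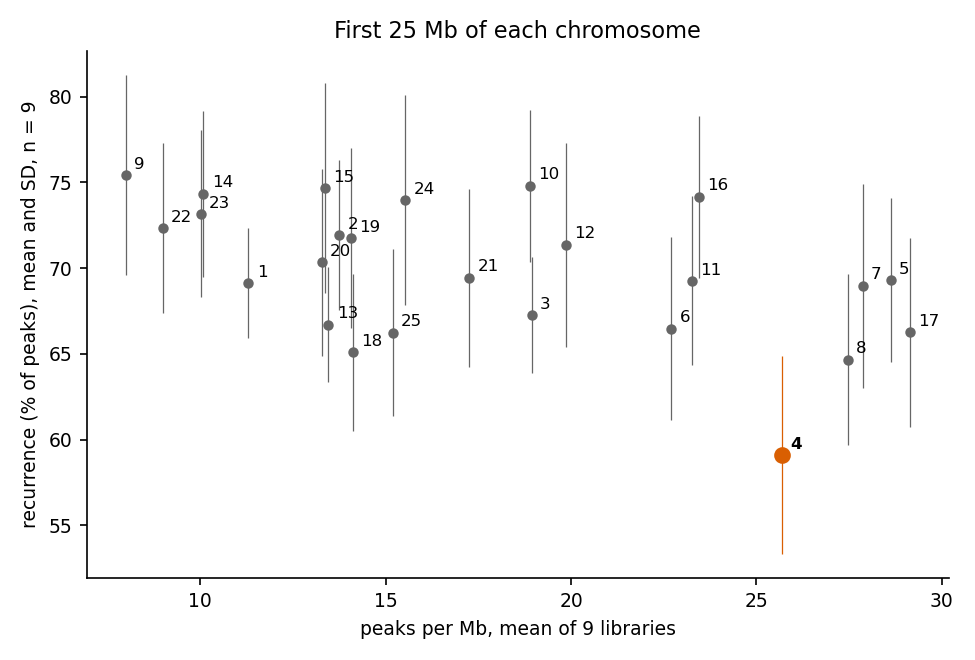
Recurrence (percent of peaks in a region detected in another library; mean and SD of 9 libraries) against peaks per Mb (mean of 9 libraries) for the first 25 Mb of each chromosome, labelled by number. Chromosome 4, in orange, lies lowest at 59.1% and 25.7 peaks per Mb; the densest chromosomes 5, 7, 8 and 17 lie between 64.7% and 69.3%.

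Peaks on the short-arm side were slightly narrower. Their median width was 228 ± 32.8 bp, against 236 ± 30.5 bp on the other chromosomes (SD, n = 9), narrower in 8 of 9 libraries (mean difference -8.61 ± 5.06 bp; exact permutation p = 0.00781, adjusted p = 0.00781). At matched 10% slices of score rank another measure was used, the mean of the slice medians weighted by the short-arm peaks in each slice. By it the sign turned, and peaks were 4.09 ± 3.65 bp wider (SD, n = 9; exact permutation p = 0.00781, adjusted p = 0.00781). The parts of the matching and of the measure in this turn were not tested. In the equal-length lists the difference was -7.00 ± 11.7 bp (SD, n = 9; exact permutation p = 0.109, adjusted p = 0.109). Peaks over 500 bp made up 5.13% ± 1.90 of the short-arm peaks and 8.44% ± 2.19 elsewhere (SD, n = 9). Neighbouring peaks lay within 1 kb of each other in 3.91% ± 1.87 of cases, against 7.09% ± 2.15 on the other chromosomes (SD, n = 9), with a lower share in 9 of 9 libraries. The median gap between neighbouring peaks was 21.1 ± 8.86 kb on the short-arm side and 23.2 ± 8.47 kb on the other chromosomes (SD, n = 9).

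Along the short-arm side peak density was uneven. The densest 1 Mb window, from 6 to 7 Mb, held 58.1 peaks per library on average, with 64, 50, 35, 40 and 39 in injured libraries 1 to 5 and 76, 62, 66 and 91 in control libraries 1 to 4. Next came 11 to 12 Mb with 40.4 and 2 to 3 Mb with 39.6. The emptiest were 19 to 20 Mb with 9 and 7 to 8 Mb with 9.44, and these 2 also had the lowest recurrence, 29.6% and 25.9%. Of the 25 windows 23 held more peaks than the median window of the other chromosomes, which had 12.3 per library, and 24 had a recurrence below the median of those windows, 67.5%. The low recurrence was therefore spread over nearly the whole stretch. The peak density was 31.7 ± 10.8 peaks per Mb in the first 5 Mb and 21.5 ± 8.65 from 20 to 25 Mb (SD, n = 9), and of the 27 regions detected in 8 or 9 libraries 10 lay in the first 5 Mb and 4 between 20 and 25 Mb.

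Peaks just before and just after 25 Mb had different values. From 20 to 25 Mb recurrence was 55.7% ± 8.02 and the median rank percentile 38.7 ± 3.55 (SD, n = 9). From 25 to 30 Mb, at a similar density of 20.4 ± 4.58 peaks per Mb, recurrence was 88.6% ± 5.21 and the median rank percentile 86.9 ± 4.39 (SD, n = 9). The window from 24 to 25 Mb held 18 peaks per library and 46.3% recurred, that from 25 to 26 Mb held 5.11 and 78.3% recurred, and that from 28 to 29 Mb held 45.3 with 95.1% recurring. Most peaks from 25 to 30 Mb lay at 26 to 27 and 28 to 29 Mb, where the median rank percentile of all peaks was 74.3 and 96.9. From 27 to 28 and 29 to 30 Mb it was 49.0 and 53.7, with 6 and 7.22 peaks per library, of which 88.9% and 69.2% recurred. From 23 to 24, 24 to 25 and 25 to 26 Mb it was 52.1, 37.3 and 73.0. The last region inside the boundary, chr4:24994599-24994793, had a peak in injured library 4 alone, at rank percentile 27.1. The first one outside it, chr4:25004724-25004986, had a peak in injured library 1 alone, at 56.5.

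The 8 regions detected in every library ranged from strong to weak. The strongest, chr4:1401826-1403027, had rank percentiles of 95.3, 99.2, 99.3, 96.1 and 98.7 in injured libraries 1 to 5 and 99.5, 97.7, 99.4 and 99.8 in control libraries 1 to 4. It was among the best-scored 5% of every list, and the groups overlapped. The widest, chr4:23742103-23743515, came second, with 96.7, 95.7, 69.8, 87.2 and 97.8 in injured and 90.9, 99.2, 96.3 and 98.6 in control libraries; its peaks measured 1147 ± 211 bp (SD, n = 9). The low value in injured library 3 sets its spread. The third and the fourth, chr4:1111817-1112388 and chr4:21505-22024, had medians of 95.5 and 94.7 and never fell below 82.7 and 90.0. The last of these begins 21505 bases into the chromosome.

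Lower down, the same regions varied by much of the list from library to library. The fifth region, chr4:24926673-24927488, had a median of 92.0 but only 40.4 in injured library 3, and the sixth, chr4:18945432-18945901, ranged from 29.3 to 94.6. The seventh, chr4:9235639-9236360, and the eighth, chr4:12006418-12007375, had medians of 66.4 and 55.4 and ranged from 33.5 to 86.0 and from 14.4 to 86.6. In the eighth, which spans 958 bp when merged and is the third widest of these regions, single peaks were 183 to 817 bp wide. In the equal-length lists the first 5 regions were still detected in all 9 libraries, whereas the sixth and eighth had a peak in 2 of 4 control libraries and the seventh in 3 of 4. Each of these kept a peak in all 5 injured libraries. Those lists kept 34.8% to 52.2% of the peaks of control and 52.1% to 100% of those of injured libraries. The part of this in the loss was not tested. The median rank percentile over these 8 regions was 93.3, close to the 92.2 over the 1329 regions of that kind on the other chromosomes, and their median widths were 769 and 771 bp.

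**Figure D5:**
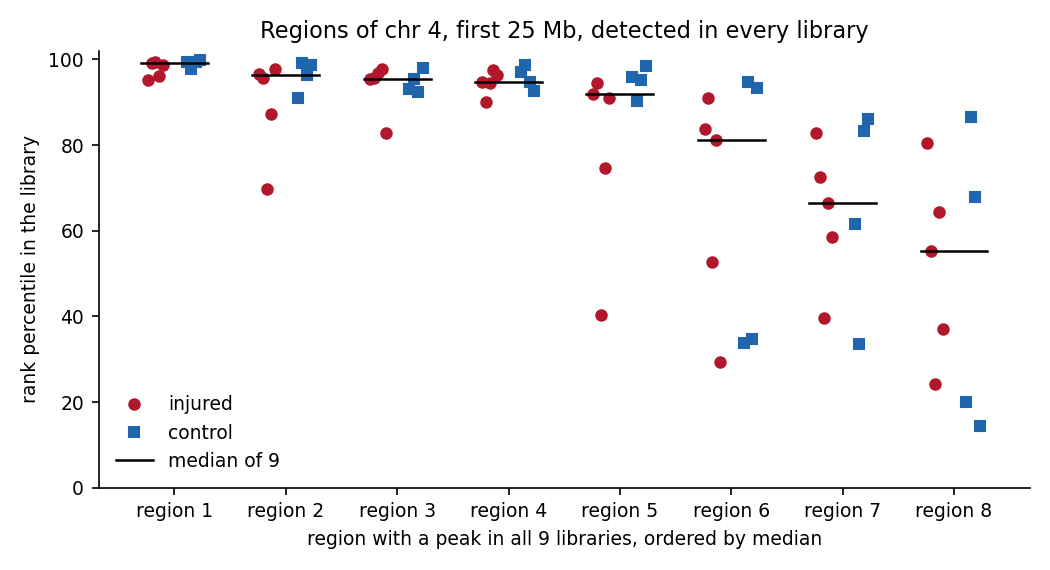
Rank percentile (vertical axis, percentage of the library's peaks that rank below) of the 8 regions of the first 25 Mb of chromosome 4 detected in all 9 libraries, in order of their median (black line). Points are injured (circles) and control (squares) libraries; regions 1 to 4 stay at or above 69.8 in all libraries, while region 8 spans 14.4 to 86.6.

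Some of the strongest peaks lay in regions missed in part of the libraries. The region chr4:1401075-1401527, 298 bp before the strongest common region, held the top short-arm peak of injured libraries 2, 3 and 5 and control libraries 1 and 3. It had rank percentiles of 60.5, 99.5, 99.4, 90.3 and 99.0 in injured and 99.6, 99.7 and 99.9 in control libraries 1, 3 and 4, and no peak in control library 2. The region chr4:433733-434347 held the top peak of injured library 4 and control library 2 and had a peak in 4 injured and 3 control libraries, with a median of 97.3. The top peak of control library 4, at 99.9, lay in chr4:9900478-9901297, which had a peak in injured library 2, at 98.4, and control library 3, at 98.4, and in no other. The top peak of injured library 1 lay in chr4:13737181-13737393, detected in 1 injured and 3 control libraries, always above 96.5. These 4 regions were named after their values had been seen. A high rank on the short-arm side thus did not always go with detection in the other libraries.

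The comparison of injured with control males asks whether a heart injury is accompanied by altered chromatin in sperm. In the lists as deposited none of the 5 values of the short-arm side passed the test between the groups. The number of peaks was 519.8 ± 166 in the 5 injured and 794.5 ± 181 in the 4 control libraries (exact permutation p = 0.0635, adjusted p = 0.317 over 5 values), with injured libraries 1 and 2 above control library 3. Injured libraries had shorter lists on the other chromosomes too, with 13.8 ± 3.68 peaks per Mb, against 21.8 ± 4.16 in control libraries. The density ratio to the other chromosomes, which is taken within a list, was 1.49 ± 0.165 for injured and 1.45 ± 0.103 for control libraries. It was tested as a log2 ratio, with a difference of 0.03 (exact permutation p = 0.762, adjusted p = 0.762). Recurrence was 60.4% ± 7.45 for injured and 57.5% ± 3.00 for control libraries (exact permutation p = 0.524). The median width was 238 ± 38.3 bp for injured and 215 ± 23.2 bp for control libraries (exact permutation p = 0.373), and the median rank percentile 38.4 ± 2.22 for injured and 38.9 ± 1.70 for control libraries (exact permutation p = 0.683). These 3 had an adjusted p of 0.762.

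In the equal-length lists the groups separated in number of peaks, density ratio and recurrence. They did not in median width (exact permutation p = 0.476) or median rank percentile (exact permutation p = 0.643). The other chromosomes held 9.21 to 9.58 peaks per Mb in these lists, so peak number and density ratio are not separate results. The number of peaks was 304.6 ± 29.6 for injured and 243 ± 13.4 for control libraries (exact permutation p = 0.0159, adjusted p = 0.0265), opposite in sign to the lists as deposited. The density ratio was 1.13, 1.38, 1.40, 1.23 and 1.31 in injured libraries 1 to 5 and 1.07, 1.10, 0.995 and 0.958 in control libraries 1 to 4, so that the groups did not overlap (log2 difference 0.32; exact permutation p = 0.0159, adjusted p = 0.0265). Recurrence was 49.5% ± 2.39 for injured and 60.2% ± 6.89 for control libraries (exact permutation p = 0.00794, adjusted p = 0.0265), also opposite in sign to the lists as deposited. On the other chromosomes it was 67.1% ± 3.95 for injured and 72.3% ± 3.03 for control libraries (exact permutation p = 0.0873). Equal length kept 52.1%, 60.6%, 100%, 65.1% and 87.9% of the peaks of injured libraries 1 to 5 and 48.5%, 45.6%, 52.2% and 34.8% of those of control libraries 1 to 4. The part in this ratio of how far down a list was kept was not tested by itself. When 50% of each list was kept instead, the log2 difference was 0.03 (exact permutation p = 0.730, adjusted p = 0.810). Recurrence in those lists was 55.1% ± 4.83 for injured and 52.3% ± 2.63 for control libraries (exact permutation p = 0.341, adjusted p = 0.569), with the sign seen in the lists as deposited.

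At the level of single regions 1057 of the 3516 were detected in 2 to 7 libraries and could be tested. Over the 38008 regions tested on chromosomes 1 to 25, Benjamini-Hochberg adjustment of Fisher's exact p left 0 regions called, and the lowest adjusted p was 0.758. With 5 against 4 libraries Fisher's exact p cannot fall below 0.00794. A region could thus pass adjustment only if a large share of all regions separated the groups, so the 0 says little about single regions. Before adjustment 35 short-arm regions had p below 0.05 (3.31%), against 4.41% of all regions tested. Of these, 34 were detected more often in control libraries (3.22%; 4.2% of all regions) and 1 more often in injured libraries (0.0946%; 0.213% of all regions), shares near or below the background. With any 1 library left out the number was 4 to 10, while 0.512% to 1.51% of all regions tested had p below 0.05. Fisher's p is then below 0.05 only for complete separation of the groups, so a lower number follows from the test. Its smallest value is 0.0286 without 1 injured and 0.0179 without 1 control library. In the equal-length lists 7 of 422 regions passed unadjusted (1.66%, against 3.06% of all), 3 more often in injured (0.711%; 0.625% of all) and 4 more often in control libraries (0.948%; 2.43% of all).

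The 3 regions first in order had no peak in any injured library and a peak in all 4 control libraries (exact p = 0.00794 by Fisher's test, adjusted p = 0.758). They were chr4:5424814-5425200, with rank percentiles of 84.2, 70.6, 71.0 and 61.6 in control libraries 1 to 4, chr4:1182969-1183805, with a median of 45.1, and chr4:10388498-10389077, with a median of 42.9. Such a pattern was found in 0.337% of all regions tested and its opposite, all injured and no control libraries, in 0 short-arm regions and 0.0132% of all. In the equal-length lists these regions kept a peak in 3, 1 and 1 control libraries. The next, chr4:141492-142699 and chr4:7844969-7845808, had a peak in 1 injured and 4 control libraries (exact p = 0.0476 by Fisher's test, adjusted p = 0.758). In the other direction the first was chr4:15802384-15803452, with a peak in all injured libraries but the third and in no control library (exact p = 0.0476 by Fisher's test, adjusted p = 0.758), with rank percentiles of 70.0, 73.6, 41.2 and 20.9 in injured libraries 1, 2, 4 and 5. It was followed by chr4:23774755-23775599 and chr4:21523384-21524305, each in 5 injured and 2 control libraries, and by chr4:17157578-17158093 and chr4:5207168-5207510, each in 3 injured and 0 control libraries (exact p = 0.167 by Fisher's test for all 4, adjusted p = 0.758).

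Among the 25 windows of 1 Mb, 1 differed in its share of the library's peaks at an unadjusted exact permutation p below 0.05, against 4.29% of the 1352 windows tested on chromosomes 1 to 25 (1.41% with the larger share in injured and 2.88% in control libraries), and 0 did after adjustment (lowest adjusted p 0.967 on the short-arm side). The smallest exact permutation p that these libraries allow is 0.00794, so the 0 after adjustment says little about single windows. The window from 21 to 22 Mb held 40, 37, 19, 24 and 25 peaks in injured libraries 1 to 5 and 23, 41, 15 and 40 in control libraries 1 to 4. As a share of the list this was 0.149% ± 0.0206 for injured and 0.0960% ± 0.0342 for control libraries (exact permutation p = 0.0317, adjusted p = 0.967). With 1 library left out, 0 of the 25 windows were called without injured library 1, 3 or 5 or control library 1 or 3. This call was lost there. In each other case 1 window was called, which was not identified and need not be that from 21 to 22 Mb. The smallest exact permutation p is then 0.0286 without 1 injured and 0.0179 without 1 control library. A call at 0.0317 can be lost by this coarser test alone, so the loss does not show dependence on these libraries. Next were 23 to 24 Mb (exact permutation p = 0.254) and 22 to 23 Mb (p = 0.437), also with a larger share in injured libraries. The windows with the larger share in control libraries, 13 to 14 Mb, 0 to 1 Mb and 18 to 19 Mb, had exact permutation p = 0.135, 0.183 and 0.214. In the equal-length lists the windows from 21 to 22, 22 to 23 and 23 to 24 Mb each passed unadjusted, with 16.4 ± 3.44, 7.40 ± 2.07 and 10.6 ± 1.67 peaks in the 5 injured and 7.50 ± 3.11, 3.50 ± 1.91 and 5.50 ± 3.32 in the 4 control libraries (exact permutation p = 0.00794, 0.0238 and 0.0317, adjusted p = 1). That was 3 of 25 windows, all with the larger share in injured libraries, against 1.99% of 1309 windows in that direction, 2.44% in the other and 4.43% in either. In these lists 21 of the 25 windows (84%) had the larger share in injured libraries, against 47.7% of all windows. In the lists as deposited it was 14 of 25 (56%), against 46.9% of all windows. The windows make up the stretch, so the 84% is not a result separate from its larger peak number in injured libraries at equal length. Whether the 3 windows stand out from the rest of the stretch was not tested.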

How the data were processed

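ATAC-seq peak lists of 5 injured and 4 control sperm libraries were used as deposited by the authors, 1 list per library, with positions and a peak score whose scale is not given. The lowest deposited score was 13 in each list. Per the submitters' processing notes the build was GRCz11, and MACS2, Bowtie2, Trim Galore, Picard and SAMtools were among the tools; which did what, with which version, transposase shift, duplicate handling or peak threshold, is not given in the sources used here. Per the labels' protocols 4.6 to 29 M reads per library were retained, without a value for each, so depth is unknown and no counting interval is given.

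Peaks on chromosomes 1 to 25 were ranked by score, then width, then position (Python 3.11.15, pandas 2.3.3, scipy 1.17.1, bedtools 2.31.1). Chromosome length was the end of its last peak over the lists. Libraries were compared between groups by an exact two-sided permutation test over 126 assignments (smallest p 0.00794), and the short-arm side with the other chromosomes by exact sign flips over 512 assignments (smallest p 0.00391), with Benjamini-Hochberg adjustment over 5 and 4 values. Regions detected in 2 to 7 libraries were tested by Fisher's exact test, and 1 Mb windows with at least 18 peaks by the permutation test, both adjusted over chromosomes 1 to 25. The region and window tests were tested on simulated data. Changed regions there separated the groups completely and window counts had no extra spread between libraries, so this checked the code and not the power in these data. Named regions were the first 10 at most detected in all libraries, by median rank percentile, the 3 widest of them, the first 5 in each direction by Fisher's p, difference in detection and rank, those beside the boundary, and the first 3 windows in each direction. Alternatives were equal-length lists, the better-scored 50%, other backgrounds, overlaps and window sizes, each library left out, and a replicate block. The stretch and its tests were chosen with earlier results of these data known. Regions are given by GRCz11 position, without genes or sequence, since no genome of that build was used. No 2 lists shared more than 1 short-arm peak with identical ends.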

Additional observations from a re-analysis of the deposited data

Results flagged for a closer look

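In control library 2 the median rank percentile of the short-arm peaks was 41.4. The next control value was 38.2, a gap of 0.866 of the range over the 4 libraries. Of 32 sets of values looked at, this alone stood apart so far, and chance gives about 1.6.

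The width difference between the short-arm side and the other chromosomes differed between groups in the lists as deposited. It was -5.50 ± 4.77 bp for the 5 injured and -12.5 ± 1.29 bp for the 4 control libraries, which is 7.00 bp apart (exact permutation p = 0.0238, 1 of 8 such differences compared, without adjustment). The sign was the other way in the equal-length lists, at -8.20 ± 11.1 bp for injured and -5.50 ± 14.0 bp for control libraries, and in the better-scored 50%, at -10.6 ± 10.9 bp for injured and -7.25 ± 8.69 bp for control libraries.

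The log2 density ratio of the short-arm side to the other chromosomes in the equal-length lists was 0.36 ± 0.13 for the 5 injured and 0.04 ± 0.09 for the 4 control libraries, a difference of 0.32 (exact permutation p = 0.0159). The lowest score kept was 29, 31, 13, 28 and 18 in injured libraries 1 to 5 and 32, 33, 29 and 42 in control libraries 1 to 4. The part of unequal list depth in this difference was not tested beyond the lists cut to 50%.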

How the results depend on the processing

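The higher density, lower recurrence and lower rank percentile of the short-arm side kept their direction and stayed past the threshold under each alternative run, though the log2 density ratio was 0.22 at equal length and 0.15 in the better-scored 50%, against 0.55; the lower width did not. It was -7.00 bp at equal length (exact permutation, adjusted p = 0.109). At matched score rank, measured by weighted slice medians, it was 4.09 bp, the opposite sign. Density by covered length was tested in the lists as deposited only. Its ratio was below 1 in injured library 1 and control libraries 1, 3 and 4 at equal length. In the better-scored 50% that ratio was below 1 in injured libraries 1 and 3 and control libraries 1 and 3. Leaving out 1 library gave log2 density ratios of 0.52 to 0.57, width differences of -9.81 to -7.94 bp, recurrence differences of -11.2 to -9.39 percentage points and rank differences of -10.6 to -9.82. Between injured and control libraries, equal length turned the sign of the differences in peak number (61.4), median width (-21.6 bp), recurrence (-10.7 percentage points) and rank percentile (0.996); peak number, recurrence and the log2 density ratio (0.32) then passed the threshold. Equal length keeps different fractions of the lists by construction. The part of this in the changed signs was not tested by itself, and neither was any other cause. Leaving out 1 library gave differences of -333 to -195 peaks, 12.9 to 36.6 bp, 0.242 to 5.26 percentage points in recurrence, and, with both signs, -0.0257 to 0.0731 in log2 density ratio (below 0 without injured library 2 or control library 3) and -1.06 to 0.31 in rank percentile (above 0 without injured library 4 or control library 2). Without control library 3 the difference in peak number had an unadjusted exact permutation p of 0.0357 (adjusted p = 0.179). The number of regions at an unadjusted p below 0.05, 35 as deposited, was 7 of 422 at equal length (3.06% of all regions tested) and 15 of 356 in the better-scored 50% (4.83% of all), and 4 to 10 without 1 library (0.512% to 1.51% of all). That of the 25 windows, 1 as deposited, was 3 at equal length (4.43% of all windows tested), 3 in the better-scored 50% (5.08% of all) and 0 to 1 without 1 library (2.52% to 4.37% of all). The cause of these moves beyond the smaller number of tested regions or libraries was not tested. Over windows, the deviations of same-numbered injured and control libraries from their group means had correlations of -0.28 to 0.01. Differently numbered libraries were not compared in this way, so these values do not decide whether the numbers pair them. With a replicate block the number of regions and of windows was 0, as 4 pairs allow no exact p below 0.125. For the same reason no value per library could pass the threshold there, so the block cannot show whether a call holds. The log2 density ratio differed by 0.07 and the peak number by -234, each at exact sign-flip permutation p = 0.125, the smallest possible. Unknown depth limits what a missing peak shows.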

Other observations

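The regions detected in 8 or 9 libraries included 2 further close neighbours. The regions chr4:9234008-9234526 and chr4:9235639-9236360 lay 1112 bp apart and were detected in 8 and 9 libraries. The regions chr4:5951257-5951815 and chr4:5957099-5957857 lay 5283 bp apart and were each detected in 8 libraries.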
